A study of Mus musculus with 6 samples.

Results

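The genes of eukaryotic translation factors, which start and carry out protein synthesis on cytosolic ribosomes, were examined in mouse quadriceps muscle. They were chosen by symbol as the protein-coding genes named Eif1 to Eif6 or Eef1 and Eef2. The eIF2 kinase (Eif2ak), 4E-binding protein (Eif4ebp) and eEF2 kinase (Eef2k) genes and genes on the Y chromosome were left out, and a mean of at least 10 expected counts over the 6 libraries was required. Of 78 genes chosen by symbol, 57 of the 53947 genes in the files met this minimum, and all 57 passed the filter on low counts and were tested. The other 21 fell below the minimum, 17 of them with a count of 0 in every library, and 16 were copies related to Eif1ad. Eef2kmt, a methyltransferase gene whose symbol begins like that of eEF2 kinase, was counted as a member, and Eef2k itself was not. Total RNA depleted of ribosomal RNA was sequenced from the quadriceps of mice aged 12 weeks, in 3 HSA-LR and 3 wild-type (WT) samples. HSA-LR mice (HSALR in the labels) express a transgene of human skeletal actin that holds some 220 CTG repeats, and model myotonic dystrophy type 1. The transgene is driven in skeletal muscle by the actin promoter, WT samples carry no transgene, and strain, sex and litter are not stated in the labels. Samples are numbered within a group without word of whether they are separate animals, and the p-values therefore reflect only how far these samples spread, which may be technical.

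Translation begins when eIF2 brings the initiator tRNA to the small ribosomal subunit, which eIF1, eIF1A and eIF3 prepare for scanning, while eIF4E binds the mRNA cap and eIF4G and eIF4A assemble there. eIF5 and eIF5B then act at the start codon, where GTP is hydrolysed and the large subunit joins. During elongation eEF1A delivers aminoacyl-tRNA, the eEF1B subunits recharge eEF1A with GTP, eEF2 moves the ribosome along the mRNA, and eIF5A helps it past difficult peptide bonds. Adult skeletal muscle is known for using eEF1A2 in place of eEF1A1, the form found in most other cells.

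The 3 HSA-LR libraries held 11468959 to 13220792 counts and the 3 WT libraries 14048603 to 15023710. 7SL and 7SK, abundant non-coding RNAs, took 44.0%, 18.9% and 24.0% of the counts in HSA-LR samples 1, 2 and 3, against 14.2% to 15.5% in WT. The 10 skeletal muscle markers were detected, with summed levels of 80830, 168100 and 127900 CPM in HSA-LR samples 1, 2 and 3 and 221100 to 254000 CPM in WT, and 0 of the 10 were called changed. Macrophage markers (8 genes, 3 called higher) summed to 610, 202 and 283 CPM in HSA-LR samples 1, 2 and 3, and to 137 to 159 CPM in WT. Fibroblast markers (6 genes, 1 called higher) summed to 6236, 1914 and 2764 CPM in HSA-LR samples 1, 2 and 3, and to 1502 to 1748 CPM in WT. Erythroid markers summed to 2046, 389 and 924 CPM in HSA-LR samples 1, 2 and 3 and to 355 to 601 CPM in WT, and adipocyte markers to 220, 228 and 1480 CPM in HSA-LR and 74.1 to 469 CPM in WT, with 0 of 5 genes called in each. No marker of these lists was at 0. HSA-LR sample 1 thus had the highest 7SL, macrophage, fibroblast and erythroid values and the lowest muscle markers, HSA-LR sample 3 the highest adipocyte value, and their part in the results for translation factors was not tested. In whole tissue, fewer cells of a type and less RNA per cell cannot be told apart. CPM values are counts scaled to a common library size by TMM, and per-gene values are given for samples 1, 2 and 3 in that order. Log2 fold changes are HSA-LR over WT with their SE, and genes were called at an adjusted p below 0.05 (edgeR's quasi-likelihood test with Benjamini-Hochberg adjustment over 13576 genes).

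Of the 57 translation factor genes, 12 (21.1%) were called, where 11.8% of all 13576 tested genes were. Called higher in HSA-LR were 3 genes, Eef1a1, Eef1b2 and Eif4a3, and called lower were 9, Eif3j1, Eif1, Eif5b, Eif4g2, Eif3j2, Eif2s2, Eif5, Eif4g1 and Eif3a. The background was 4.28% of all genes higher and 7.48% lower. The 9 genes called lower were all initiation factors (9 of 43, with 0 higher when eIF4A3 is set apart). Among the 9 genes of elongation, counting the eIF5A pair and Eef1e1 with them, 2 were called higher and 0 lower. At an unadjusted p below 0.05 the same fit gave 5 members higher and 15 lower. The median log2 fold change was -0.22 over the 43 initiation factor genes and 0.18 over the 9 elongation genes, against 0.04 over all genes tested. Groups did not overlap for 9 members higher and 18 lower in HSA-LR (17.8% and 20.0% of all genes, or 37.8% in either direction). The median member was 0.37 below its WT mean on the log2 scale in HSA-LR sample 1 and 0.13 below it in sample 3, and 0.07 above it in sample 2, while the median of all genes was 0.02 above the WT mean in each. Eif1 and Eif5b were called in each of the 18 alternative settings run. They were the 2 called members whenever 1 WT sample or HSA-LR sample 3 was left out, so the other 10 calls rest on having all of these samples. In those 4 fits 166 to 217 of all genes were called, against 1597 with all samples, while the log2 fold change of Eef1b2, for example, stayed between 0.65 and 0.71. Without HSA-LR sample 1 the number of called members was 13, with 2003 of 13908 genes called, and without HSA-LR sample 2 it was 21, with 3294 of 13960 genes called. On log2(TPM + 0.1), a scale on which the median of all genes moved to -0.46, 3 members were called, all lower. With 7SL and 7SK content as a covariate 6 of the 12 stayed called, Eif1, Eif5b, Eif3j1, Eif4g2, Eif5 and Eef1b2. That content was higher in every HSA-LR sample than in any WT sample and by far the highest in HSA-LR sample 1. Group and covariate therefore overlap, and what the fit with the covariate takes from either cannot be told apart.

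**Figure D1:**
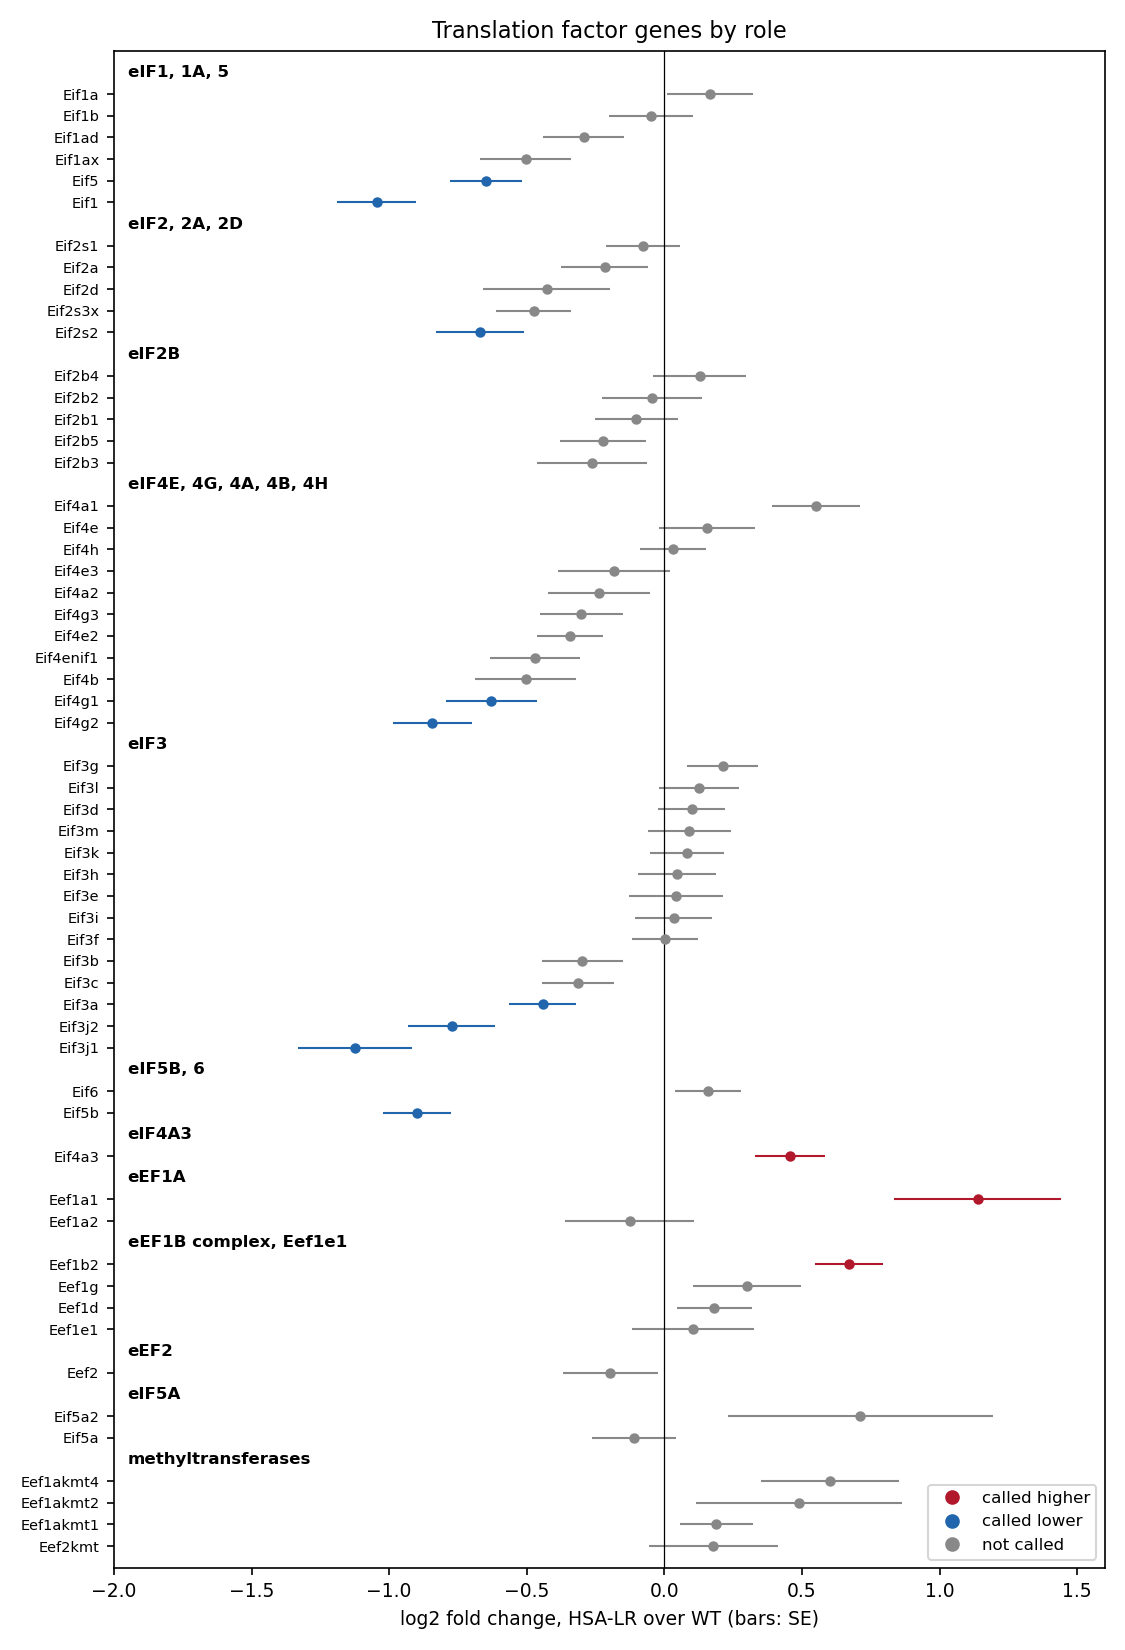
Log2 fold change (x axis, HSA-LR over WT) of each of the 57 translation factor genes, grouped by role down the page. Points are the fitted values of 3 HSA-LR against 3 WT libraries, bars are SE, and colour marks the 3 genes called higher and the 9 called lower. The called initiation factors apart from Eif4a3 lie left of 0, and the called elongation genes Eef1a1 and Eef1b2 lie right of it.

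Of the 6 genes of start codon selection 2 were called, both lower. Eif1, whose product keeps the scanning ribosome from starting at poor start codons, had 109, 91.7 and 85.3 CPM in HSA-LR and 203, 187 and 201 CPM in WT (chr11:100210670-100212922, plus strand, GRCm39). Every HSA-LR sample was at about the same low level and none came near WT, and the log2 fold change was -1.04 ± 0.14 (adjusted p = 0.00572). Eif5, the GTPase-activating protein that acts on eIF2, had 54.6, 68.3 and 60.7 CPM in HSA-LR and 96.3, 95.6 and 96.1 CPM in WT (chr12:111502067-111514340, plus strand). The WT samples were nearly equal and all above HSA-LR, with a log2 fold change of -0.65 ± 0.13 (adjusted p = 0.0193). Eif1b, the close copy of Eif1, did not follow it, with 18.3, 18.5 and 13.9 CPM in HSA-LR and 16.9, 18.5 and 16.9 CPM in WT and a log2 fold change of -0.05 ± 0.15 (adjusted p = 0.850). The difference between the responses of the pair was not tested. Eif1ax, an X-linked gene of eIF1A, had 51.8, 69.2 and 50.2 CPM in HSA-LR and 90.5, 71.5 and 81.0 CPM in WT, and its log2 fold change of -0.50 ± 0.16 missed the threshold (adjusted p = 0.0742). Eif1a, the second gene of eIF1A, had 11.3, 10.3 and 10.2 CPM in HSA-LR and 9.19, 9.74 and 9.37 CPM in WT, a log2 fold change of 0.17 ± 0.15. Eif1ad, which encodes a protein with an eIF1A domain, had a log2 fold change of -0.29 ± 0.15 and was not called either.

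The genes of eIF2, the GTPase that carries the initiator tRNA, were listed with Eif2a and Eif2d, which are not its subunits. All 5 had negative log2 fold changes, as did 6396 of all 13576 tested genes, and 1 of the 5 was called. This was Eif2s2, the beta subunit, with 55.9, 75.2 and 55.5 CPM in HSA-LR and 104, 88.6 and 105 CPM in WT (chr2:154713330-154734855, minus strand). HSA-LR sample 2 came closest to WT without reaching it, and the log2 fold change was -0.67 ± 0.16 (adjusted p = 0.0317). Eif2s3x, the X-linked gene of the gamma subunit, had 44.6, 57.9 and 49.9 CPM in HSA-LR and 71.2, 67.0 and 73.9 CPM in WT, groups that did not overlap, with a log2 fold change of -0.48 ± 0.14 just outside the threshold (adjusted p = 0.0539). Eif2s1, the alpha subunit that the eIF2 kinases phosphorylate, was at -0.08 ± 0.13 with overlapping groups. Eif2a and Eif2d, alternative initiator tRNA carriers, were at -0.22 ± 0.16 and -0.43 ± 0.23. For eIF2B, the 5-subunit complex that reloads eIF2 with GTP, 0 of 5 genes were called, and their log2 fold changes ran between -0.26 and 0.13. Eif2b5, the catalytic epsilon subunit and the eIF2B gene with the highest CPM, had 39.3, 57.4 and 45.1 CPM in HSA-LR and 56.5, 56.3 and 52.8 CPM in WT, so that HSA-LR sample 2 lay above every WT sample (log2 fold change -0.22 ± 0.16, adjusted p = 0.349).

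In the cap-binding group 2 of 11 genes were called, both scaffolds of the eIF4G family and both lower. Eif4g2 (DAP5), a relative of eIF4G1 that lacks the eIF4E-binding region and serves cap-independent initiation, had 276, 317 and 276 CPM in HSA-LR and 524, 504 and 530 CPM in WT (chr7:110666957-110682244, minus strand). The 3 samples of each group stood close together, and the log2 fold change was -0.84 ± 0.14 (adjusted p = 0.0110). Eif4g1, the main scaffold that joins eIF4E, eIF4A and eIF3, had 212, 303 and 258 CPM in HSA-LR and 415, 386 and 393 CPM in WT (chr16:20487063-20511654, plus strand). HSA-LR sample 1 was lowest and sample 2 highest, all below WT, with a log2 fold change of -0.63 ± 0.17 (adjusted p = 0.0431). With 7SL and 7SK content as a covariate it was -0.37 and no longer called (adjusted p = 0.111). The third scaffold gene, Eif4g3, had 64.0, 88.0 and 79.2 CPM in HSA-LR and 102, 88.3 and 94.4 CPM in WT, a log2 fold change of -0.30 ± 0.15 that was not called (adjusted p = 0.202).

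The helicase and cap-binding genes of that group were not called. Eif4a1, the eIF4A helicase of most cells, had 113, 97.1 and 115 CPM in HSA-LR and 60.4, 85.4 and 75.8 CPM in WT. The groups did not overlap, and the log2 fold change of 0.55 ± 0.16 lay just outside the threshold (adjusted p = 0.0543). It was called in 7 of the 18 alternative settings, DESeq2 among them (adjusted p = 0.0160, over the alternatives 0.0160 to 0.980). Its paralog Eif4a2 had 230, 330 and 212 CPM in HSA-LR and 296, 299 and 314 CPM in WT, with HSA-LR samples on both sides of WT (log2 fold change -0.24 ± 0.19). Eif4e, the cap-binding protein, had 54.7, 83.4 and 56.9 CPM in HSA-LR and 60.9, 56.2 and 58.3 CPM in WT. Here HSA-LR sample 2 was alone above the others, and the log2 fold change was 0.15 ± 0.17. Eif4e2 (4EHP), a cap-binding relative that represses translation, had 26.2, 29.8 and 27.8 CPM in HSA-LR and 36.4, 33.7 and 36.2 CPM in WT, groups apart but not called (log2 fold change -0.34 ± 0.12, adjusted p = 0.0912). Eif4e3, the third cap-binding gene, had 14.5, 22.8 and 22.3 CPM in HSA-LR and 22.6, 18.7 and 26.5 CPM in WT, overlapping groups. The helicase cofactors Eif4b and Eif4h were at -0.50 ± 0.18 and 0.03 ± 0.12 on the log2 scale, and Eif4enif1 (4E-T), which binds eIF4E outside the initiation complex, at -0.47 ± 0.16.

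Of the 14 genes of eIF3, the largest initiation factor complex, 3 were called lower and 0 higher, and 9 had log2 fold changes between 0.00 and 0.21. Eif3a, the scaffold subunit, had 66.1, 74.7 and 66.1 CPM in HSA-LR and 92.4, 94.8 and 93.8 CPM in WT (chr19:60749551-60779149, minus strand), all HSA-LR samples below all WT samples (log2 fold change -0.44 ± 0.12, adjusted p = 0.0483). This call held in 6 of the 18 alternative settings and was lost, among others, with RLE or upper-quartile factors and without the filter on low counts. Eif3j1 and Eif3j2 both encode the loosely bound j subunit. Eif3j1 had 15.4, 27.0 and 18.5 CPM in HSA-LR and 50.9, 41.1 and 41.1 CPM in WT (chr2:121858606-121906334, plus strand), and its log2 fold change of -1.13 ± 0.21 was the most negative of the 57 genes (adjusted p = 0.0143). Eif3j2 had 33.0, 46.6 and 33.6 CPM in HSA-LR and 66.3, 62.3 and 64.8 CPM in WT (chr18:43608483-43610861, minus strand), a log2 fold change of -0.77 ± 0.16 (adjusted p = 0.0202). In both, HSA-LR sample 2 was the highest of its group and still below WT. The coding sequences of the pair were 99.2% identical, with a shared run of 763 bases, so the division of reads between them is uncertain. Their sum does not depend on it, and with both counted as 1 gene it had 48.4, 73.7 and 52.2 CPM in HSA-LR and 117, 104 and 106 CPM in WT (log2 fold change -0.91 ± 0.18, adjusted p = 0.0166, an alternative chosen after seeing the data). The core subunits Eif3b and Eif3c were at -0.30 ± 0.15 and -0.31 ± 0.13, below WT without overlap and not called. The most abundant eIF3 gene per length, Eif3i, had 86.8, 108 and 90.0 CPM in HSA-LR and 93.0, 86.2 and 99.0 CPM in WT, a log2 fold change of 0.03 ± 0.14.

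The eIF5B gene shared the lowest adjusted p with Eif1. Eif5b, the GTPase that joins the ribosomal subunits, had 18.1, 20.5 and 19.0 CPM in HSA-LR and 37.6, 35.8 and 34.1 CPM in WT (chr1:38037038-38094683, plus strand). The gap between the groups was wider than the range of either, with a log2 fold change of -0.90 ± 0.12 (adjusted p = 0.00572). Eif6, which keeps the large subunit from joining too early, had 34.9, 34.0 and 36.4 CPM in HSA-LR and 29.2, 31.8 and 33.3 CPM in WT, groups apart by a small margin and not called (log2 fold change 0.16 ± 0.12, adjusted p = 0.388). Eif4a3 belongs to the eIF4A family by sequence but works in the exon junction complex that marks spliced mRNA. It had 33.8, 33.6 and 39.1 CPM in HSA-LR and 27.0, 24.4 and 26.2 CPM in WT (chr11:119177570-119190933, minus strand), every HSA-LR sample above every WT sample, and a log2 fold change of 0.46 ± 0.13 (adjusted p = 0.0483). With the trend on transcript length removed it was 0.28 and not called (adjusted p = 0.195). The call of Eif4a3 held in 8 of the 18 alternative settings, over which its log2 fold change ranged between 0.06 and 0.61. It was lost, among others, with limma-voom, without the filter on low counts and with 7SL and 7SK content as a covariate.

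**Figure D2:**
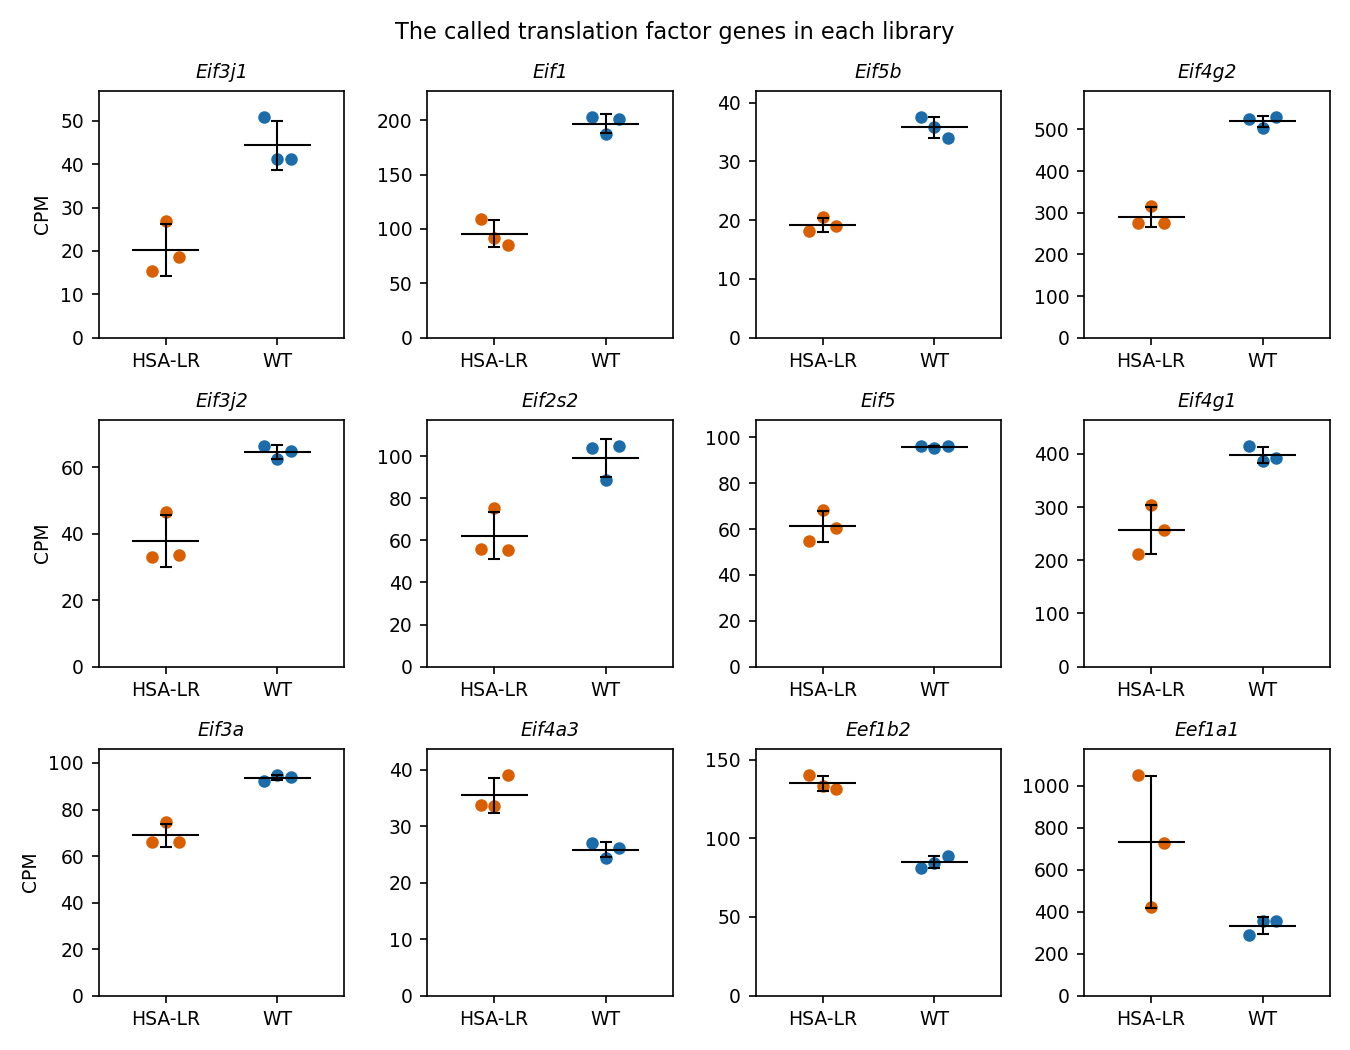
CPM (y axes, each from 0) of the 12 called genes in the 3 HSA-LR libraries on the left and the 3 WT libraries on the right of each panel, in order of log2 fold change. Points are libraries, long bars the mean and capped bars the SD. Groups are apart in every panel, and HSA-LR libraries of Eef1a1 spread between 421 and 1051 CPM.

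Eef1a1, the eEF1A gene of most cells, had the highest log2 fold change of the 57 genes and the widest spread among the called ones. It had 1051, 421 and 728 CPM in HSA-LR and 287, 358 and 354 CPM in WT (chr9:78384916-78396778, minus strand). HSA-LR sample 1 was far above the rest and sample 2 only a little above WT, the same order of samples as for the macrophage and fibroblast markers and the 7SL and 7SK share, whose part in it was not tested. The log2 fold change was 1.14 ± 0.30 (adjusted p = 0.0469). Without HSA-LR sample 1 it was 0.80 and not called (adjusted p = 0.0527), and with 7SL and 7SK content as a covariate it was 0.43 (adjusted p = 0.273). Eef1a2, the muscle form, had 404, 806 and 595 CPM in HSA-LR and 659, 674 and 638 CPM in WT. Here the order of the HSA-LR samples was the reverse of that of Eef1a1, with sample 1 lowest and sample 2 above WT, and the log2 fold change was -0.13 ± 0.24 (adjusted p = 0.741), positive at 0.10 without HSA-LR sample 1. The coding sequences of the pair were 80.5% identical with a longest shared run of 23 bases. To show how often they differ, the first 60 coding bases of both are given with the 11 differing positions in capitals (GENCODE M39 transcripts, GRCm39).
Eef1a1: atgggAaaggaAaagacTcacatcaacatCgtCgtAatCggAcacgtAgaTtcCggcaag
Eef1a2: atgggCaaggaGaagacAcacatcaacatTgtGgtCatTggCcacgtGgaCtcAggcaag

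Of the eEF1B genes, which encode the exchange factors of eEF1A, and Eef1e1, 4 of 4 had positive log2 fold changes and 1 was called. Over all 13576 tested genes 7180 were positive. Eef1b2, the catalytic beta subunit, had 140, 133 and 131 CPM in HSA-LR and 81.3, 84.0 and 88.9 CPM in WT (chr1:63215940-63219645, plus strand). Both groups were tight and well apart, unlike those of Eef1a1, and the log2 fold change was 0.67 ± 0.12 (adjusted p = 0.0140). With the length trend removed it was 0.35 and not called (adjusted p = 0.115), and on log2(TPM + 0.1) it was 0.15 (adjusted p = 0.830). Eef1g, the gamma subunit, had 313, 528 and 397 CPM in HSA-LR and 328, 344 and 334 CPM in WT, with HSA-LR sample 1 below WT and sample 2 highest (log2 fold change 0.30 ± 0.20, adjusted p = 0.321). Eef1d, the delta subunit, was at 0.18 ± 0.14, and Eef1e1, a small relative found with the aminoacyl-tRNA synthetases, at 0.10 ± 0.22. Eef2, the translocase, had 543, 750 and 689 CPM in HSA-LR and 804, 727 and 741 CPM in WT, overlapping groups with a log2 fold change of -0.20 ± 0.17 (adjusted p = 0.455).

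Eif5a, the hypusine-bearing factor, had 107, 146 and 132 CPM in HSA-LR and 148, 129 and 139 CPM in WT, a log2 fold change of -0.11 ± 0.15. Its paralog Eif5a2 had the fewest counts of the members (15 to 37 counts a library). It had 3.52, 1.29 and 1.41 CPM in HSA-LR and 1.56, 0.99 and 1.19 CPM in WT, where HSA-LR sample 1 alone was high. At this depth a difference was not detectable for it (log2 fold change 0.71 ± 0.48, adjusted p = 0.333). The 4 genes of methyltransferases that modify eEF1A or eEF2 (Eef1akmt1, Eef1akmt2, Eef1akmt4 and Eef2kmt) had log2 fold changes between 0.18 and 0.60, and 0 were called. The most abundant of them, Eef1akmt1, had 19.3, 21.9 and 23.9 CPM in HSA-LR and 18.5, 18.7 and 20.0 CPM in WT.

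Levels of paralogs can be set side by side per length, as shares of the family's summed TPM. Eef1a1 made up 75.9%, 39.3% and 60.1% of eEF1A TPM in HSA-LR and 36.1%, 40.0% and 41.0% in WT. HSA-LR sample 2 lay within the WT range. The means were 58.4% ± 18.3 in HSA-LR and 39.04% ± 2.58 in WT (SD, n = 3 each, exact two-sided permutation test, p = 0.3, adjusted over 5 families 0.3). Eif4a1 made up 29.2%, 20.8% and 32.6% of eIF4A TPM in HSA-LR and 15.7%, 19.3% and 17.8% in WT, with no overlap (exact permutation p = 0.1, adjusted 0.167). Eif4g3 made up 10.2%, 10.4% and 9.58% of eIF4G TPM in HSA-LR and 8.19%, 6.86% and 6.87% in WT, and Eif4e3 made up 6.82%, 7.40% and 9.70% of eIF4E TPM in HSA-LR and 11.04%, 9.72% and 11.9% in WT, again without overlap (exact permutation p = 0.1, adjusted 0.167, for each). The share of Eif5a2 was 0.39% ± 0.304 in HSA-LR and 0.20% ± 0.0286 in WT (SD, n = 3 each, exact permutation p = 0.3). With 3 against 3 samples 0.1 is the smallest p this test can give, so it could not have passed 0.05.

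**Figure D3:**
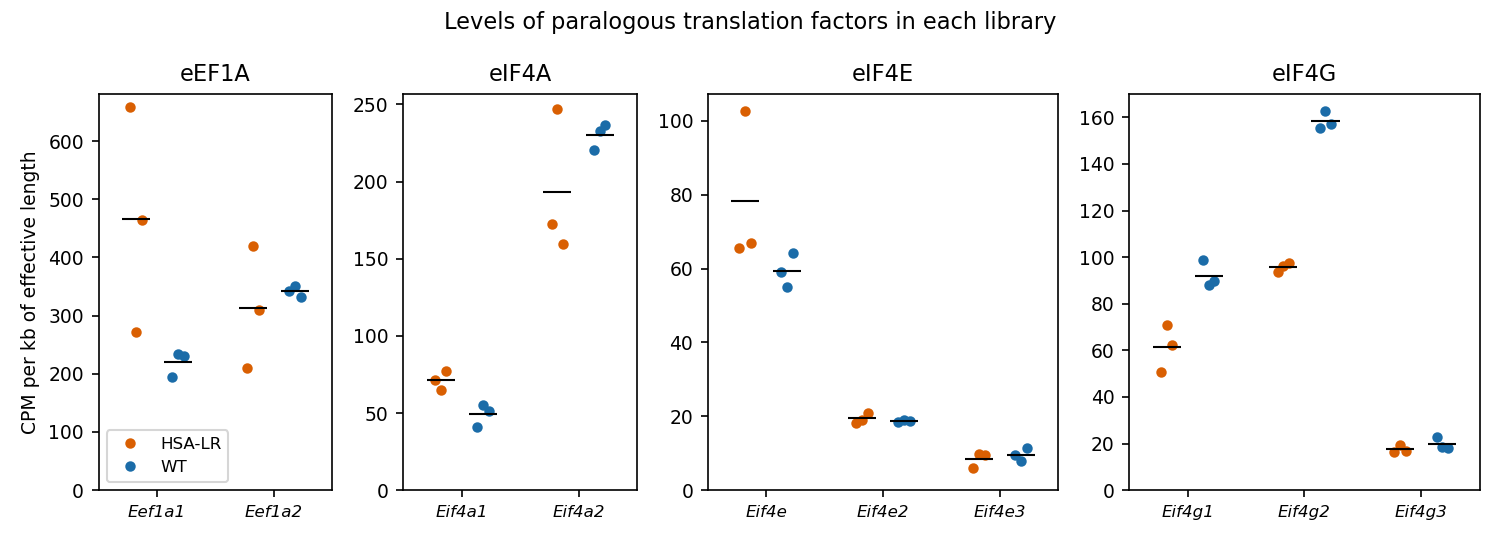
CPM per kb of effective length (y axes, from 0) of the eEF1A, eIF4A, eIF4E and eIF4G paralogs. Points are libraries, with HSA-LR left of WT for each gene and short bars the mean of 3. HSA-LR libraries of Eef1a1 and Eef1a2 spread widely in opposite order, and HSA-LR libraries of Eif4g1 and Eif4g2 lie below WT.

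The order of levels, in CPM per kb of effective length, was led by elongation genes. In HSA-LR the highest means were those of Eef1a1 (465 ± 193), Eef1a2 (313 ± 105) and Eef1g (246 ± 63.2), of which neighbours in this order differed by less than the larger of their SDs over 3 samples, and Eef1a1 and Eef1g by more than the SD of either. In WT the highest were Eef1a2 (342 ± 9.62), Eef2 (261 ± 13.0) and Eif1 (252 ± 15.8), of which Eef1a2 stood apart and the other two lay within their SD. Eif1 ranked 8 in HSA-LR and 3 in WT, and Eef1b2 ranked 5 in HSA-LR and 9 in WT. Eif5a2 was the lowest in both groups, with 0.43 ± 0.257 in HSA-LR and 0.26 ± 0.0587 in WT.

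The direction of the members went with the length of their transcripts. The Spearman correlation of log2 fold change with length was -0.588 across the 57 genes and -0.247 across 12298 protein-coding genes, a description over genes that share the same 6 libraries. Of 19 members under 1500 bases 2 were called higher and 1, Eif1, lower (10.5% and 5.26%, against 8.93% and 1.38% of protein-coding genes of that length). Of 24 members between 1500 and 2500 bases 1 was called higher and 2 lower (4.17% and 8.33%, against 3.16% and 4.54% of protein-coding genes of that length). Of 14 members of 2500 bases or more 0 were called higher and 6 lower (0.0% and 42.9%, against 2.7% and 13.0% of protein-coding genes of that length). Eif1, at a mean length of 896 bases, was short and lower, unlike the other genes called lower, which were at least 2225 bases long. With each library's trend on length removed 7 of the 12 members stayed called, Eif3j1, Eif1, Eif5b, Eif4g2, Eif3j2, Eif2s2 and Eif5, and 0 were called higher.

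**Figure D4:**
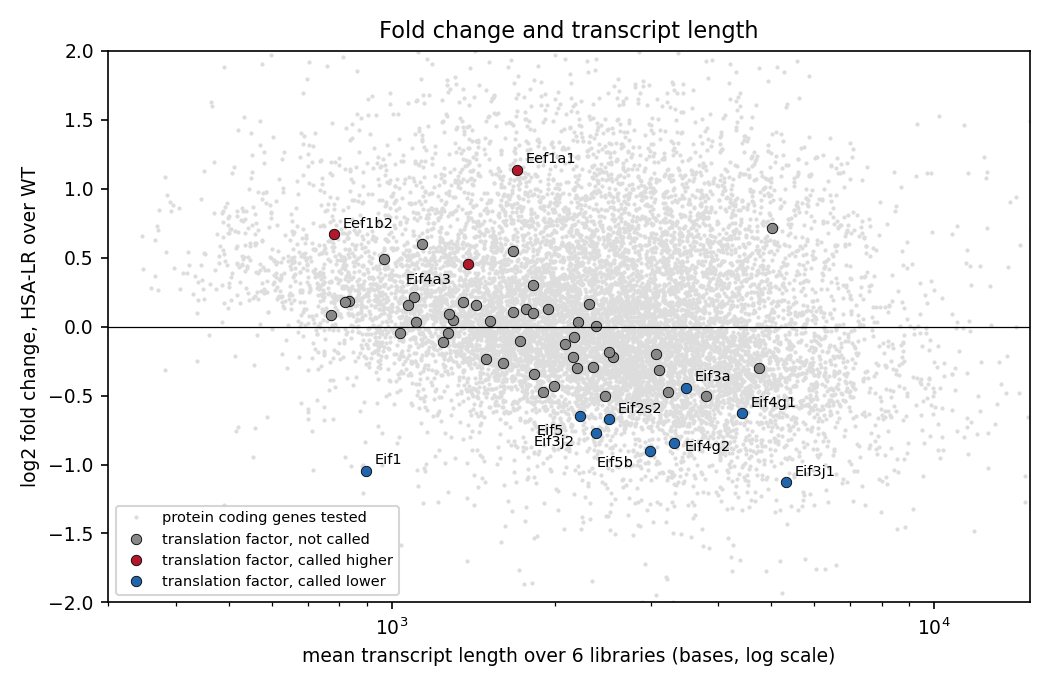
Log2 fold change (y axis, HSA-LR over WT, drawn between -2 and 2) against mean transcript length in bases (x axis, log scale). Large points are the 57 translation factor genes, coloured by call, and small points are protein-coding genes tested, those outside the axes not drawn. Called genes of 2500 bases or more are all lower, and Eif1 is the short gene among those called lower.

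The files also give the mean length of each gene's transcripts, weighted by their estimated abundance, which the fold changes did not use. It varied between libraries in 50 of the 57 genes. Of these 50, groups did not overlap for 2 longer and 5 shorter in HSA-LR, close to the shares over all genes. Those shares were 4.56% longer and 8.23% shorter of 11286 genes with a varying length, or 12.8% in either direction. Eif4e2 had 1589, 1736 and 1480 bases in HSA-LR and 2122, 1945 and 2092 bases in WT, a mean 22.0% shorter. Eif4e had 989, 977 and 1007 bases in HSA-LR and 1195, 1185 and 1070 bases in WT. The third cap-binding gene, Eif4e3, had the same length in every library. Eif1ax had 2518, 2160 and 1999 bases in HSA-LR and 2657, 2743 and 2776 bases in WT, Eif1 had 858, 800 and 887 bases in HSA-LR and 923, 957 and 951 bases in WT, and Eif5 differed by 4.4% in the same direction. Eef1a1 and Eef1g were longer in HSA-LR by 3.0% and 1.7%. With counts divided by effective length Eif4e2 had a log2 fold change of 0.03 in place of -0.34. That division uses these same length estimates, so it is no separate check of the lower counts.

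Many mRNAs of ribosomal proteins and elongation factors are known to begin with a run of pyrimidines that starts with C, through which their translation is controlled. Transcript starts annotated in RefSeq were searched for it on the strand of the gene, in a window of 10 bases before and 20 bases from the start. A run was 8 or more bases of C or T beginning with C. It could lie anywhere in the window, and in an entry of Eif4e and in entries of Eif4enif1 it lay wholly before the start. A run that crossed the edge of the window was counted only for the bases inside. In Eef2, counted as without it, a run of 5 bases reached the last base of the window. RefSeq (GRCm38.p6 table, placed on GRCm39 by an exact match) had an entry for 45 members, of which 8 (17.8%) held such a run, against 10.1% of 27025 genes. Of the 10 called members with an entry 1 held it, Eef1a1. The windows of Eef1a1 (chr9:78388987-78389016, minus strand), Eef1a2 (chr2:180798789-180798818, minus strand), Eef1b2 (chr1:63215980-63216009, plus strand), Eif1 (chr11:100210765-100210794, plus strand), Eif5b (chr1:38037081-38037110, plus strand) and Eif3f (chr7:108533612-108533641, plus strand) are given because they stand for genes called higher, called lower and not called, with the run in capitals where there is one.
Eef1a1: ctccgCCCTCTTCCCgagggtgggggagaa
Eef1a2: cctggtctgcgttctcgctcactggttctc
Eef1b2: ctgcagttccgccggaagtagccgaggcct
Eif1: ggcgtcacaggggcggctatataagtgaat
Eif5b: ctgggttcccacctggccggcggctctact
Eif3f: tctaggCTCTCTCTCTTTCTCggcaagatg
The longest run of the members was that of Eif3f, an eIF3 subunit whose log2 fold change was 0.00 ± 0.12. The annotated starts were not checked against the reads, so a window may lie apart from where the mRNA in muscle begins. A match is therefore a description of letters in the genome and does not show that the mRNA begins with the run. No match says only that the run is not in that window.

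Neighbouring genes bear on what these counts hold. Within the bodies of 8 members lie 17 snoRNA genes on the same strand, among them 5 in Eif4a2 and 3 each in Eef1b2 and Eif4a1. The exons of 19 members overlap another gene with at least 10 counts on average, among them Eef1b2 with Ndufs1, Eif5b with Rev1 and Eif3j1 with Spg11 on the opposite strand, and Eif5 with Gm58608 on the same strand. The libraries keep strand, but how the counting treated strand is not stated, so reads of such pairs may be shared.

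Other genes of translation, from lists that the rule left out, were described in the same fit. Of the regulators of these factors 2 of 7 tested were called, both lower. Eif4ebp2, a repressor that holds eIF4E away from eIF4G, had 41.8, 60.7 and 57.1 CPM in HSA-LR and 187, 149 and 177 CPM in WT, with all HSA-LR samples far below WT and a log2 fold change of -1.69 ± 0.18 (adjusted p = 0.00299). Eif2ak1, the haem-regulated eIF2 kinase, had 15.8, 17.5 and 16.8 CPM in HSA-LR and 26.6, 22.3 and 24.5 CPM in WT (log2 fold change -0.55 ± 0.13, adjusted p = 0.0306). Cytosolic ribosomal protein genes were called higher in 56 of 85 and lower in 0, with a median log2 fold change of 0.62. Genes of cytosolic aminoacyl-tRNA synthetases, which charge the tRNAs that eEF1A carries, and of their scaffold proteins Aimp1 and Aimp2 were called lower in 6 of 22 and higher in 0, with a median of -0.38. Of the termination and recycling factors 0 of 8 were called, of the poly(A)-binding group 1 of 6 (Paip2b, lower), of the mitochondrial translation factors 1 of 11 (Gfm2, lower), and of the enzymes of hypusine and diphthamide synthesis, which modify eIF5A and eEF2, 0 of 9. With 581 genes higher and 1016 lower among all 13576, these counts are descriptions of each list, and the lists were not tested against each other.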

How the data were processed

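RNA was extracted with TRIzol from quadriceps and stranded total RNA libraries were made after ribosomal RNA depletion. The authors deposited 1 table a sample with expected counts, TPM, FPKM and the length and effective length of 53947 genes. RSEM 1.3.1, Bowtie2 and GRCm39 are named in the submitters' processing notes, with no annotation release. The deposited expected counts are estimates in which reads matching several genes are divided between them, and were rounded to whole numbers here. The TPM values deposited by the authors correct those counts for effective length and scale them to a fixed sum, and the FPKM values they deposited were read but not tested. The other columns the authors deposited, length and effective length, served the length checks. The study's methods cover small RNA, so the test was not taken from them.

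Symbols and coordinates came from GENCODE M39, matched by gene identifier for 53400 genes (98.99%). The title of each sample gave its group. Genes were filtered with filterByExpr, normalised by TMM and tested with edgeR 4.0.16's robust quasi-likelihood test (limma 3.58.1, R 4.3.3) with group as the only term, over 13576 genes. Each SE is the size of the log2 fold change over the square root of its F statistic. The common dispersion of 0.0535 is a coefficient of variation of 0.231 between libraries, and 3 counts correspond to 0.199 to 0.285 CPM. That floor covers counting error alone, as reads carried no molecular identifiers. Effective length set the CPM per kb, and shares of TPM were tested by exact permutation over the 6 libraries. Per-library values are given for called members, for the most abundant member of each role and for listed paralogs, and a few others were named after their values were seen. Members and lists were chosen with earlier results of these data known. Sequences came from GENCODE M39 and the RefSeq GRCm38.p6 tables. Whole counts in all 6 libraries (within 0.005) were found for 34 members. The fit was tested on simulated data. The settings varied were the tool (DESeq2 1.42.0, limma-voom, or limma-trend with TPM logged after adding 0.1), upper-quartile or RLE factors, no filter, a mean of at least 50 counts, an effective length offset, removal of the length trend, 7SL and 7SK content as a covariate, protein-coding genes alone, a replicate block and each library left out. Summing Eif3j1 and Eif3j2 was added after seeing the data.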

Additional observations from a re-analysis of the deposited data

How the results depend on the processing

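The main fit called 12 members and 1597 genes (36.4% of them higher). Among members, 3 were called by limma-trend on log2(TPM + 0.1), 7 with the length trend removed, 7 with 7SL and 7SK content as a covariate, and 2 to 21 with each library left out. The other settings apart from the replicate block gave 8 to 14. Over all genes the counts were 2428 by DESeq2 (47.9% higher), 519 on TPM (9.63% higher), 742 with the length offset, 935 with the covariate and 166 to 3294 with a library left out, and upper-quartile factors made 48.2% of calls higher. On TPM the median of all genes was -0.46 and that of members -0.61, so changes there are relative to that shift. The fit without 1 sample has 5 libraries and assumes that both groups vary alike.

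The replicate block called 5 members and 799 genes. The labels do not say whether equal numbers pair the samples. Same-numbered deviations from the group means correlated at 0.00884, -0.0849 and 0.216, and only sample 3 of both groups correlated best with its own number. With 3 samples a group these correlations cannot decide whether the samples are paired.

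No called member changed direction. Among the named members not called, the ones for which each alternative was recorded, these did. On TPM the log2 fold changes were -0.36 for Eef1akmt1, -0.32 for Eef1g, -0.53 for Eif3i, -0.29 for Eif6, -0.0241 for Eif4a1, -0.19 for Eif4e and -0.33 for Eif1a. Without the length trend they were -0.12 for Eef1akmt1, -0.20 for Eif3i, -0.00583 for Eif6 and -0.0853 for Eif4e. With the covariate they were 0.35 for Eef1a2, 0.0518 for Eef2, 0.0317 for Eif2b5, 0.12 for Eif5a, 0.16 for Eif4e3 and -0.28 for Eif5a2. Eif4e2 was at 0.0336 with the length offset, and Eif1b at 0.00917 with upper-quartile factors and 0.00241 with at least 50 counts. With each library left out in turn the log2 fold change ranged between -0.40 and 0.10 for Eef1a2, between -0.0762 and 0.10 for Eif3i, between -0.22 and 0.0134 for Eif5a, between -0.0738 and 0.27 for Eif4e, between -0.31 and 0.00677 for Eif4e3 and between -0.13 and 0.0729 for Eif1b. The cause of these changes was not tested. Eif5a2, at 15 to 37 counts a library, had the fewest counts of the members.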
